A study of Mus musculus with 16 samples.

Results

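The genes described here encode 10 cell-surface receptor tyrosine kinases that bind growth factors of the EGF, FGF, insulin-like growth factor and neurotrophin families: Egfr, Erbb2, Erbb3, Erbb4, Fgfr1, Fgfr2, Fgfr3, Igf1r, Ntrk2 and Ntrk3. The rule picks them by symbol and uses no measured value, though earlier results of these data were known when it was set, and they are 10 of the 53379 genes counted in each file. RNA-seq was carried out on green (GFP+) cells sorted from the neocortex of single mice at postnatal day 4, with mosaic analysis with double markers (MADM) on chromosome 7. In MADM, exchange between homologous chromosomes during division leaves sparse cells whose color reports their genotype. The labels give the strain as CD1, and the methods of the study a mixed C57BL/6, CD1 background and both sexes.

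All groups carried the MADM-7 cassettes (GT and TG), Emx1-Cre, which acts in the dorsal forebrain lineage, and the XGFAP-lacZ transgene, in which the human GFAP promoter drives lacZ. The groups were Eed+/+ astrocytes (GFP+/lacZ+ cells of control-MADM, n = 5), Eed-/- astrocytes (GFP+/lacZ+ cells of Eed-MADM, n = 5), Eed+/+ neurons (GFP+/lacZ- cells of control-MADM, n = 2) and Eed-/- neurons (GFP+/lacZ- cells of Eed-MADM, n = 3). Eed belongs to the core of Polycomb repressive complex 2 (PRC2), which trimethylates lysine 27 of histone H3. Eed-/- cells were sparse, and most of the cells around them were heterozygous. In both genotypes the green cells held 2 paternal copies of chromosome 7. The comparisons asked whether receptor levels differed between Eed-/- and Eed+/+ cells within each sorted population, between the sorted populations, and whether the genotype difference was unequal in the 2 populations.

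In receptor tyrosine kinases, ligand binding brings together or rearranges paired receptor chains, which phosphorylate each other and recruit adaptors such as Grb2, Frs2 and Shc proteins, which switch on the RAS-MAPK and PI3K-AKT cascades. In the developing cortex, EGF receptor signaling is known to drive progenitor division and gliogenesis, FGF receptors act in radial glia and in astrocyte development, and TrkB is the receptor for brain-derived neurotrophic factor. Fgfr3 is a known marker of astrocytes and radial glia, Erbb4 is best known from interneurons, and a truncated form of TrkB that lacks the kinase is known to be abundant in astrocytes. Counts per gene do not separate such forms.

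The sequences just upstream of 3 of the receptor genes are shown because Fgfr3 and Ntrk2 had the highest mean levels per length and Erbb4 is a gene of low level, at 2.60 CPM per kb over the 4 group means, above only Erbb3 (0.398) on that measure. Each is the 250 bases before a RefSeq transcription start, 5′ to 3′ on the strand of the gene (GRCm38.p6), with CpG dinucleotides in capitals.
Fgfr3, chr5:33721474-33721723, plus strand: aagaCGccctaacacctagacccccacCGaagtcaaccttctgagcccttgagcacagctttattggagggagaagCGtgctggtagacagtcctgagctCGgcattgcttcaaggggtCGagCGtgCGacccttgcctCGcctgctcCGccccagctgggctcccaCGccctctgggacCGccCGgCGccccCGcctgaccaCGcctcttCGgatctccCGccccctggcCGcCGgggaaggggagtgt
Ntrk2, chr13:58806319-58806568, plus strand: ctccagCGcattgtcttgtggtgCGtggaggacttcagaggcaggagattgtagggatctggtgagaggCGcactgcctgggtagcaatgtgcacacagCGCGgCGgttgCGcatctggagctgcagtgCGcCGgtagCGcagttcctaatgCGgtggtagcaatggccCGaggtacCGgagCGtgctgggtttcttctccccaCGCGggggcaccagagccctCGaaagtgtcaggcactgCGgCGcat
Erbb4, chr1:69108060-69108309, minus strand: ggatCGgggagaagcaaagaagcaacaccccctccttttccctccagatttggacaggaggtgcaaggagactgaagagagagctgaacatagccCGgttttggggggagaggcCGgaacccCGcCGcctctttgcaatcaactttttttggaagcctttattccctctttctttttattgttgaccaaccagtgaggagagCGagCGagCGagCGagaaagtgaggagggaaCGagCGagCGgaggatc
The Fgfr3 and Ntrk2 windows each hold 19 CpGs, and 19.7% of the 32841 mouse promoters in the RefSeq set hold at least as many in the same length. Fgfr3 has a second RefSeq window (chr5:33722056-33722305, not shown) with 24 CpGs, a number reached by 11.98% of promoters. The Erbb4 window holds 12 CpGs, a number reached by 33.5% of promoters. The median of all promoters is 6. RefSeq windows matched 7 of the 10 receptors, and over them the number ran from 2 CpGs at Fgfr2 to 42 at Igf1r. In these 2 windows alone, bases just after the start matched no annotated transcript. The Fgfr2 window (chr7:130266809-130267058) also lies inside the annotated span of the gene, so both ends of the range are uncertain. No chromatin measurement at these promoters was analysed here, so the sequences stand as context for the counts.

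Libraries differed in depth and in how many receptors had reads. Counts summed over genes ran from 211736 to 3178529 over the 15 labelled libraries, and 5 of them (Eed+/+ astrocyte replicate 3, Eed-/- astrocyte replicates 1, 3 and 4, and Eed+/+ neuron replicate 2) had under 60% or under 1000000 uniquely aligned reads. These are called libraries outside the limits, and results are given with and without them. Eed-/- astrocyte replicate 1 had reads of 3 of the 10 receptors and replicate 4 of 2, whereas the 10 libraries within the limits had reads of 8 to 10. At similar depth, Eed+/+ neuron replicate 2 (343640 gene counts) had reads of all 10 and Eed-/- astrocyte replicate 1 (383061 gene counts) of 3. In Eed-/- astrocyte replicates 1 and 4 erythroid markers summed to 5723 and 7801 CPM against 0 to 62.0 CPM in every other labelled library, and microglia markers summed to 7951 CPM in Eed-/- astrocyte replicate 1 and 2217 CPM in replicate 3 against at most 376 CPM elsewhere. Astrocyte markers (a list of 12 genes led by Fabp7, Slc1a3 and Slc1a2) summed to 6051 to 38670 CPM in Eed+/+ astrocytes, 1692 to 39920 in Eed-/- astrocytes and 9023 to 13830 in the neuron libraries, where all 12 had reads, and neuron markers (12 genes led by Tubb3, Stmn2 and Map2) to 300 to 3472, 20.3 to 2953 and 1199 to 2731 CPM. Of the neuron list, Slc17a7, a marker of glutamatergic neurons, did not exceed 7.55 CPM in any neuron library. Tubb3 was at 174.8 CPM or more, Stmn2 at 218.5 or more and Map2 at 156.0 or more in each of them. The 2 populations are therefore named by their sort, lacZ+ and lacZ-, whenever "astrocytes" and "neurons" are written, and the part of other cells in each receptor's level was not tested. Levels are TMM-scaled CPM, that is counts per 1000000 gene counts after scaling for composition. In Eed+/+ astrocytes Eed itself was at 46.1, 76.2, 3.71, 39.2 and 28.4 CPM, and in Eed-/- astrocytes at 0, 17.3, 0, 0 and 14.2 CPM. In Eed+/+ neurons Eed was at 64.9 and 81.2 CPM, and in Eed-/- neurons at 16.4, 38.0 and 33.4 CPM. All Eed-/- levels lay below the Eed+/+ levels in neurons, and in astrocytes Eed+/+ replicate 3 overlapped the Eed-/- range. The log2 fold change of Eed was -2.48 (95% interval -5.77 to 0.81, adjusted p = 0.9999, edgeR) in astrocytes and -1.42 (-2.94 to 0.10, adjusted p = 0.69) in neurons. Counts per gene do not show which exons the Eed reads lie in.

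Per kilobase of exons, the scale on which genes can be compared, Ntrk2 and Fgfr3 led in every group, and Erbb3 was last in every group. Fewer cells of a type and less RNA per cell cannot be told apart in these bulk values. In Eed+/+ astrocytes Ntrk2 reached 54.0 ± 26.2, Fgfr3 53.6 ± 31.6 and Fgfr1 36.3 ± 5.37 CPM per kb (mean ± SD, n = 5), followed by Fgfr2 (16.6 ± 5.98), Egfr (11.0 ± 5.77), Erbb2 (6.60 ± 4.40), Igf1r (4.10 ± 1.63), Ntrk3 (3.06 ± 1.31), Erbb4 (0.571 ± 0.391) and Erbb3 (0.377 ± 0.516). In this order the gap to the next gene was larger than both SDs only below Fgfr1 and below Ntrk3. In Eed-/- astrocytes no neighboring pair was separated by more than the larger SD. In Eed-/- neurons the order began with Ntrk2 (35.4 ± 5.07), Fgfr3 (26.3 ± 7.37), Fgfr1 (21.1 ± 2.46) and Egfr (16.7 ± 6.59 CPM per kb, n = 3), with gaps beyond the larger SD below Ntrk2 and below Egfr. In Eed+/+ neurons (n = 2) Fgfr3 was first with 46.1 ± 31.0 CPM per kb and Ntrk2 second with 28.7 ± 0.106, while in replicate 1, the only one within the limits, Ntrk2 (28.6) stood above Fgfr3 (24.1). Egfr stood behind Fgfr2 in both astrocyte groups and ahead of it in both neuron groups.

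**Figure D1:**
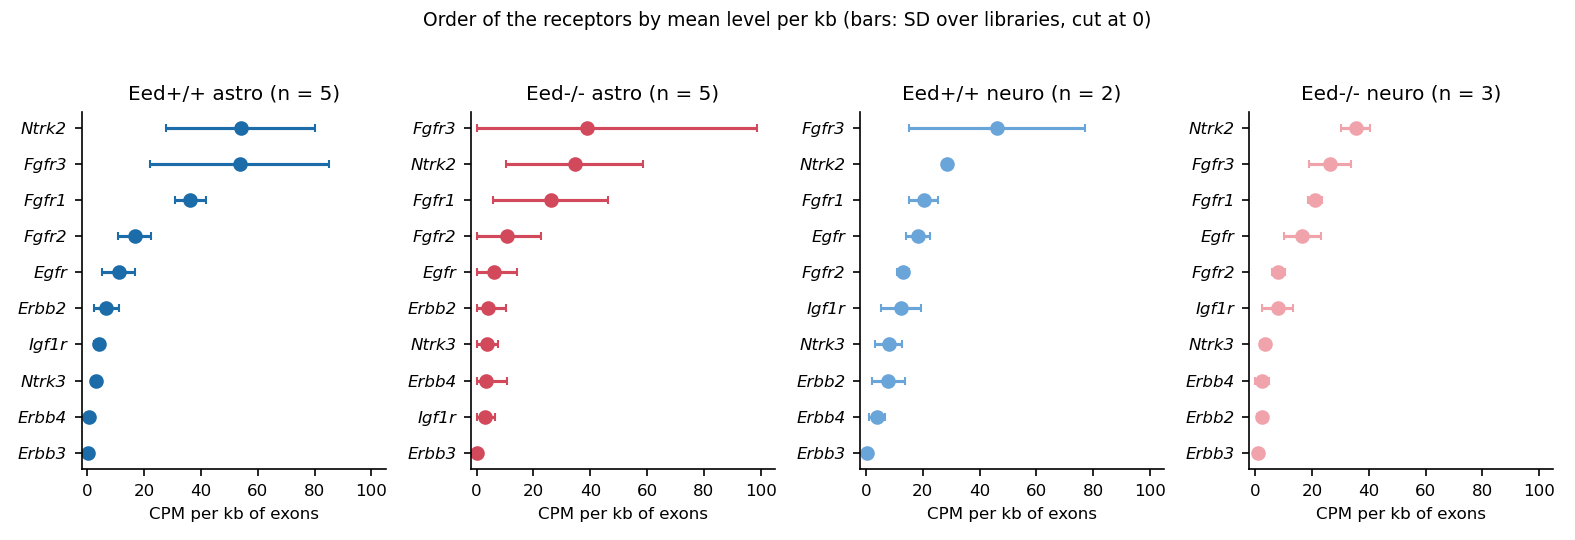
Mean level of each receptor in CPM per kilobase of exons (x axis) in the 4 groups, ordered within each group, with bars for the SD over libraries cut at 0. Ntrk2 and Fgfr3 hold the top 2 places in each panel and Erbb3 the last, and the bars of most neighbors overlap.

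None of the receptors passed the threshold (adjusted p of 0.05, edgeR's quasi-likelihood test) in any of the 4 comparisons over all labelled libraries. In astrocytes 8 receptors passed the filter on low counts and 0 were called between Eed-/- and Eed+/+, where 0 of all 8956 genes tested were called (0%) and 108 (1.21%) had an unadjusted p under 0.05. In neurons 9 were tested and 0 called, against 0 of 11862 genes (0%) with 862 (7.27%) at an unadjusted p under 0.05. Between astrocytes and neurons 10 were tested and 0 called, against 2 of 13367 genes (0.015%) with 736 (5.51%) at an unadjusted p under 0.05. The interaction of genotype with cell type called 0 of 10 receptors and 7 of 13367 genes (0.0524%) with 483 (3.61%) at an unadjusted p under 0.05. DESeq2 also called 0 receptors in each of these comparisons, and 1 (0.0112%), 26 (0.219%), 5 (0.0374%) and 5 (0.0374%) genes. Within the limits edgeR called 0 receptors in all 4 comparisons, with 0 of 12070 genes in astrocytes (488, or 4.04%, at an unadjusted p under 0.05), 1 of 12803 in neurons (0.00781%, with 322, or 2.52%, in a fit with 1 Eed+/+ library, assumed to vary like the Eed-/- libraries), 0 of 14445 between cell types (1111, or 7.69%) and 0 of 14445 in the interaction (342, or 2.37%). DESeq2 within the limits called 0 receptors, 14 genes in astrocytes (0.116%) and 5 in neurons (0.0391%). Over all libraries no receptor had groups that did not overlap in astrocytes between the genotypes, where 1.73% of genes did (1.72% lower), or between cell types, where 0.471% did (0.0224% higher and 0.449% lower). The paragraphs that follow give values and intervals of differences for the receptors, though not for each receptor in each comparison. Such an interval shows how large a difference these libraries would leave undetected.

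**Figure D2:**
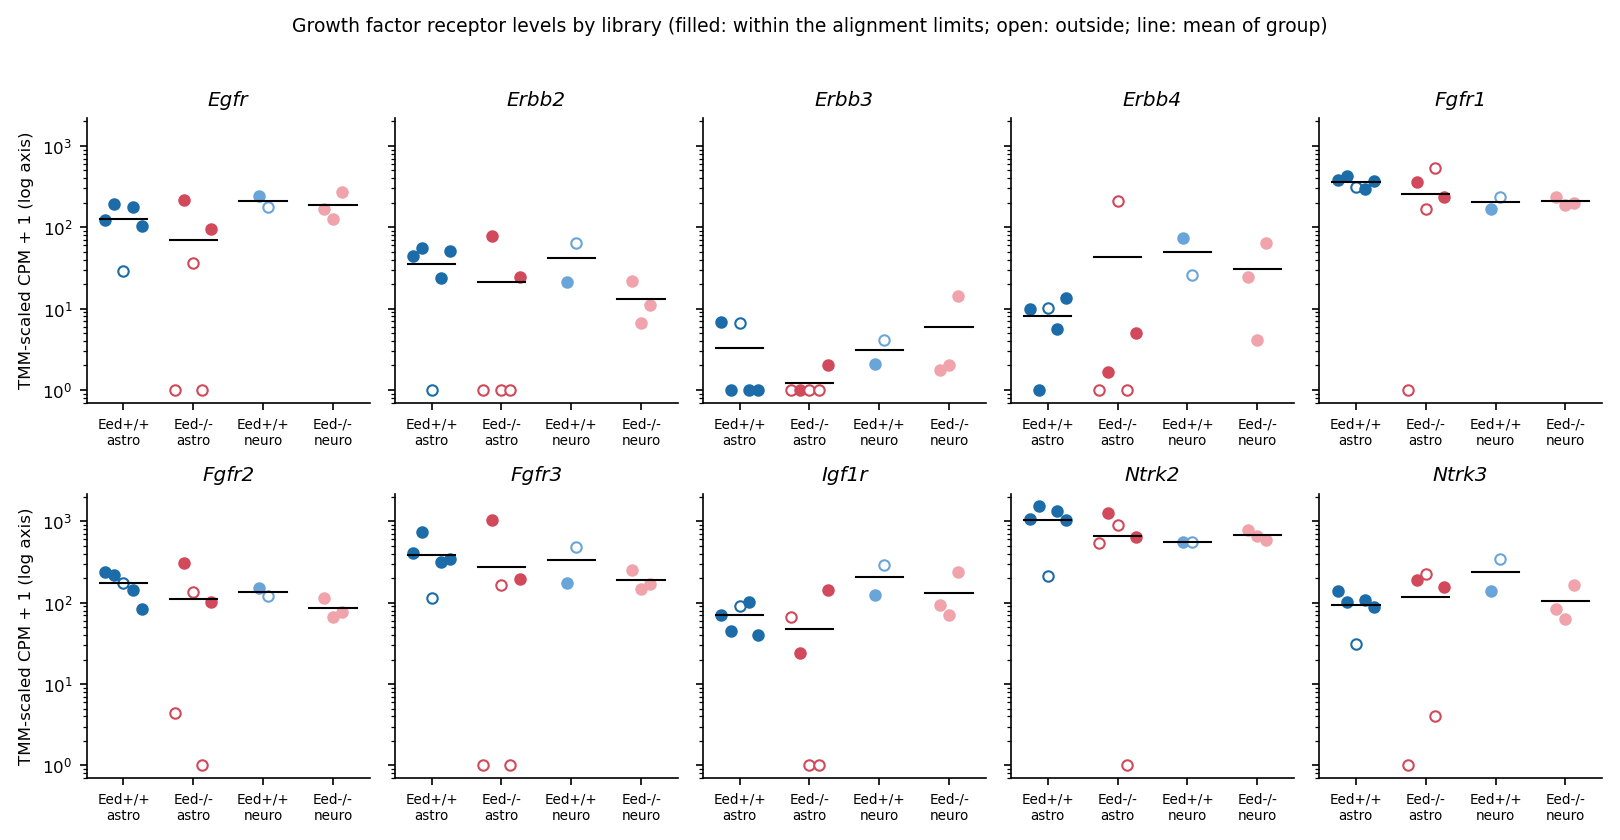
TMM-scaled CPM + 1 on a log axis for each receptor, with 1 point per library, in the 4 groups (filled points, libraries within the alignment limits, open points, outside them, lines, group means). The open points of Eed-/- astrocytes scatter down to 0 reads, drawn at 1, for all 10 receptors at least once, while the filled points of that group lie within the range of Eed+/+ astrocytes or close to it for most genes.

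Of the ErbB receptors, Egfr, the receptor of EGF, TGF-alpha and HB-EGF (chr11:16752203-16918158, plus strand), was measured in all 10 libraries within the limits. Its level ran from 27.8 to 190 CPM in Eed+/+ astrocytes, from 0 to 216 in Eed-/- astrocytes, from 175 to 240 in Eed+/+ neurons and from 126 to 271 in Eed-/- neurons. The astrocyte genotype difference was -0.80 on the log2 scale (95% interval -3.51 to 1.91, adjusted p = 0.9999) and 0.07 (-0.94 to 1.09) within the limits. In neurons it was -0.25 (-1.59 to 1.09, adjusted p = 0.90), and -0.39 (-1.64 to 0.86) within the limits. The astrocyte libraries averaged below the neuron libraries, with a log2 fold change of -1.09 (-2.97 to 0.79) overall and -0.51 (-1.31 to 0.29) within the limits, both with 0 inside the interval.

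Erbb2 encodes a partner receptor that binds no ligand of its own (chr11:98412470-98437716, plus strand). In Eed+/+ astrocytes it was at 43.5, 55.2, 0, 22.6 and 50.5 CPM and in Eed-/- astrocytes at 0, 76.4, 0, 0 and 23.3 CPM. In Eed+/+ neurons it was at 20.4 and 62.4 CPM, and in Eed-/- neurons at 21.1, 5.64 and 10.1 CPM. All 4 astrocyte libraries without a read lay outside the limits, where the floor of 3 counts stood between 5.08 and 9.27 CPM. Within the limits the 6 astrocyte libraries (22.6 to 76.4 CPM) lay above all 4 neuron libraries (5.64 to 21.1 CPM), with a log2 fold change of 1.53 (-0.01 to 3.06, adjusted p = 0.65), whereas over all libraries it was 0.24 (-2.17 to 2.64), and -0.57 without Eed-/- astrocyte replicate 2. Of all genes tested within the limits, 1.43% were above the neuron libraries in every astrocyte library. Between the genotypes the log2 fold change was -0.73 (-3.83 to 2.37) in astrocytes over all libraries and 0.23 (-1.33 to 1.78) within the limits. Without Eed-/- astrocyte replicate 2 it was -2.35. In neurons it was -1.87 (-3.79 to 0.06, adjusted p = 0.69). The value in neurons rested on Eed+/+ replicate 2, outside the limits, and was -0.79 (-2.66 to 1.08) without it.

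Erbb4, a neuregulin receptor (chr1:68032186-69108059, minus strand), was at 8.90, 0, 9.28, 4.61 and 12.5 CPM in Eed+/+ astrocytes and at 0, 0.665, 207, 0 and 4.05 CPM in Eed-/- astrocytes. In Eed+/+ neurons it was at 73.5 and 25.0 CPM and in Eed-/- neurons at 23.5, 3.08 and 63.6 CPM. One library, Eed-/- astrocyte replicate 3, with 70 reads, lay above all the others, and it is one of the libraries rich in microglia markers and outside the limits. Within the limits the mean was 5.12 ± 4.81 CPM in astrocytes (n = 6) and 40.9 ± 33.2 CPM in neurons (n = 4), and the ranges overlapped because Eed-/- neuron replicate 2 had 6 reads. The log2 fold change of astrocytes against neurons was -3.64 (-6.21 to -1.07, adjusted p = 0.50) within the limits and -1.17 (-3.45 to 1.11) over all libraries. The first interval excludes 0, but so do those of many genes, since 7.69% of genes tested had an unadjusted p under 0.05 in that fit. Erbb4 had too few reads to be tested between the genotypes in astrocytes over all libraries, and in neurons the difference was -0.85 (-2.96 to 1.25). The neuron value turned on single libraries, with -2.02 without Eed-/- replicate 3, 0.10 without Eed+/+ replicate 1, -0.30 without Eed-/- replicate 2, and -1.34 (-3.16 to 0.48) without Eed+/+ replicate 2, which is the fit within the limits.

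Erbb3, a neuregulin receptor with a weak kinase that is known from oligodendrocyte precursors and Schwann cells (chr10:128567523-128589652, minus strand), was close to the counting limit. It had 15 reads in the 10 astrocyte libraries together and 27 in the 5 neuron libraries, 21 of them in Eed-/- neuron replicate 3 (13.2 CPM). The floor of 3 counts stood between 1.12 and 9.36 CPM per library, so most of its values lay at or under the floor. Oligodendrocyte-lineage markers, a cell type that carries Erbb3, summed to 1336 to 5173 CPM in Eed+/+ astrocytes, 135 to 4411 in Eed-/- astrocytes and 1348 to 3824 in neurons, and their part in the Erbb3 reads was not tested.

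Of the FGF receptors, Fgfr1 (chr8:25513654-25575718, plus strand) was the steadiest receptor among Eed+/+ astrocytes, at 381, 429, 314, 298 and 370 CPM. In Eed-/- astrocytes it was at 0, 354, 165, 528 and 237 CPM, in Eed+/+ neurons at 166 and 237, and in Eed-/- neurons at 236, 189 and 199. The value of 528 CPM came from Eed-/- astrocyte replicate 4, in which all 171 FGF receptor reads were Fgfr1 reads. The genotype difference in astrocytes was -0.33 (-2.60 to 1.95), and -0.31 (-1.05 to 0.43) within the limits. In neurons it was -0.08 (-1.39 to 1.23, adjusted p = 0.97), and 0.29 (-0.95 to 1.53) within the limits. With RLE in place of TMM scaling the astrocyte value changed sign, to 0.13, and the median of all genes moved from -0.54 to -0.37. Within the limits the astrocyte libraries (237 to 429 CPM) lay just above the neuron libraries (166 to 236 CPM), with a log2 fold change of 0.80 (0.16 to 1.44, adjusted p = 0.56).

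Fgfr2 lies on the MADM chromosome, 40.18 Mb from Eed (chr7:130162451-133123350, minus strand). Its annotated span, introns included, overlaps 69 other genes, 33 of them antisense. The counts used here ignore strand and leave out ambiguous reads, and how far such overlaps touch the Fgfr2 counts was not tested. It was at 240, 217, 175, 142 and 83.8 CPM in Eed+/+ astrocytes and at 3.38, 304, 136, 0 and 102 CPM in Eed-/- astrocytes. It was at 150 and 119 CPM in Eed+/+ neurons and at 113, 65.7 and 75.5 CPM in Eed-/- neurons, the only receptor for which every Eed-/- neuron library lay below both Eed+/+ libraries. Of all genes tested in that comparison, 7.72% had such an arrangement, and the log2 fold change of Fgfr2 was -0.78 (-2.07 to 0.51, adjusted p = 0.76). In astrocytes it was -0.61 (-3.17 to 1.94), and 0.26 (-0.96 to 1.49) within the limits.

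Fgfr3 (chr5:33721674-33737068, plus strand) averaged 41.2 CPM per kb over the 4 group means, beside 38.2 for Ntrk2, and which of the pair led differed between the groups. Its levels were 408, 737, 113, 313 and 347 CPM in Eed+/+ astrocytes and 0, 1028, 162, 0 and 194 CPM in Eed-/- astrocytes. In neurons they were 173 and 487 CPM in Eed+/+ and 248, 148 and 168 CPM in Eed-/- libraries. The highest value, in Eed-/- astrocyte replicate 2, and the zeros, in replicates 1 and 4 of the same group, left a spread larger than the mean (277 ± 429 CPM, SD, n = 5, against 384 ± 227 in Eed+/+). The genotype difference in astrocytes was -0.44 (-2.70 to 1.83), with 0.45 (-0.94 to 1.83) within the limits. In neurons it was -0.96 (-2.40 to 0.48, adjusted p = 0.76), and 0.09 (-1.17 to 1.34) without Eed+/+ replicate 2. The log2 fold change of astrocytes against neurons was 0.38 (-1.41 to 2.17) over all libraries, -0.40 without Eed-/- astrocyte replicate 2, and 1.52 (0.43 to 2.61, adjusted p = 0.50) within the limits, where the ranges were 194 to 1028 and 148 to 248 CPM and overlapped.

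Within the limits, Fgfr3 made up 54.0% (44.5 to 68.8% over 6 libraries) of the FGF receptor reads per kb in astrocytes and 46.1% (43.5 to 49.9% over 4 libraries) in neurons, with Fgfr1 at 31.5% and 36.4% and Fgfr2 at 14.5% and 17.5%. The ErbB family was divided less alike. Egfr held 59.2% (46.0 to 77.0%) of ErbB reads per kb in astrocytes and 74.8% (67.9 to 88.1%) in neurons, Erbb2 held 37.7% (21.2 to 48.9%) and 11.6% (5.82 to 19.4%), and Erbb4 2.17% (0 to 5.09%) and 11.4% (1.97 to 19.0%). The Erbb2 shares of the 2 populations did not overlap within the limits, and Eed+/+ neuron replicate 2, outside them, held a share near that of the astrocytes. These shares are given as values and were not tested.

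**Figure D3:**
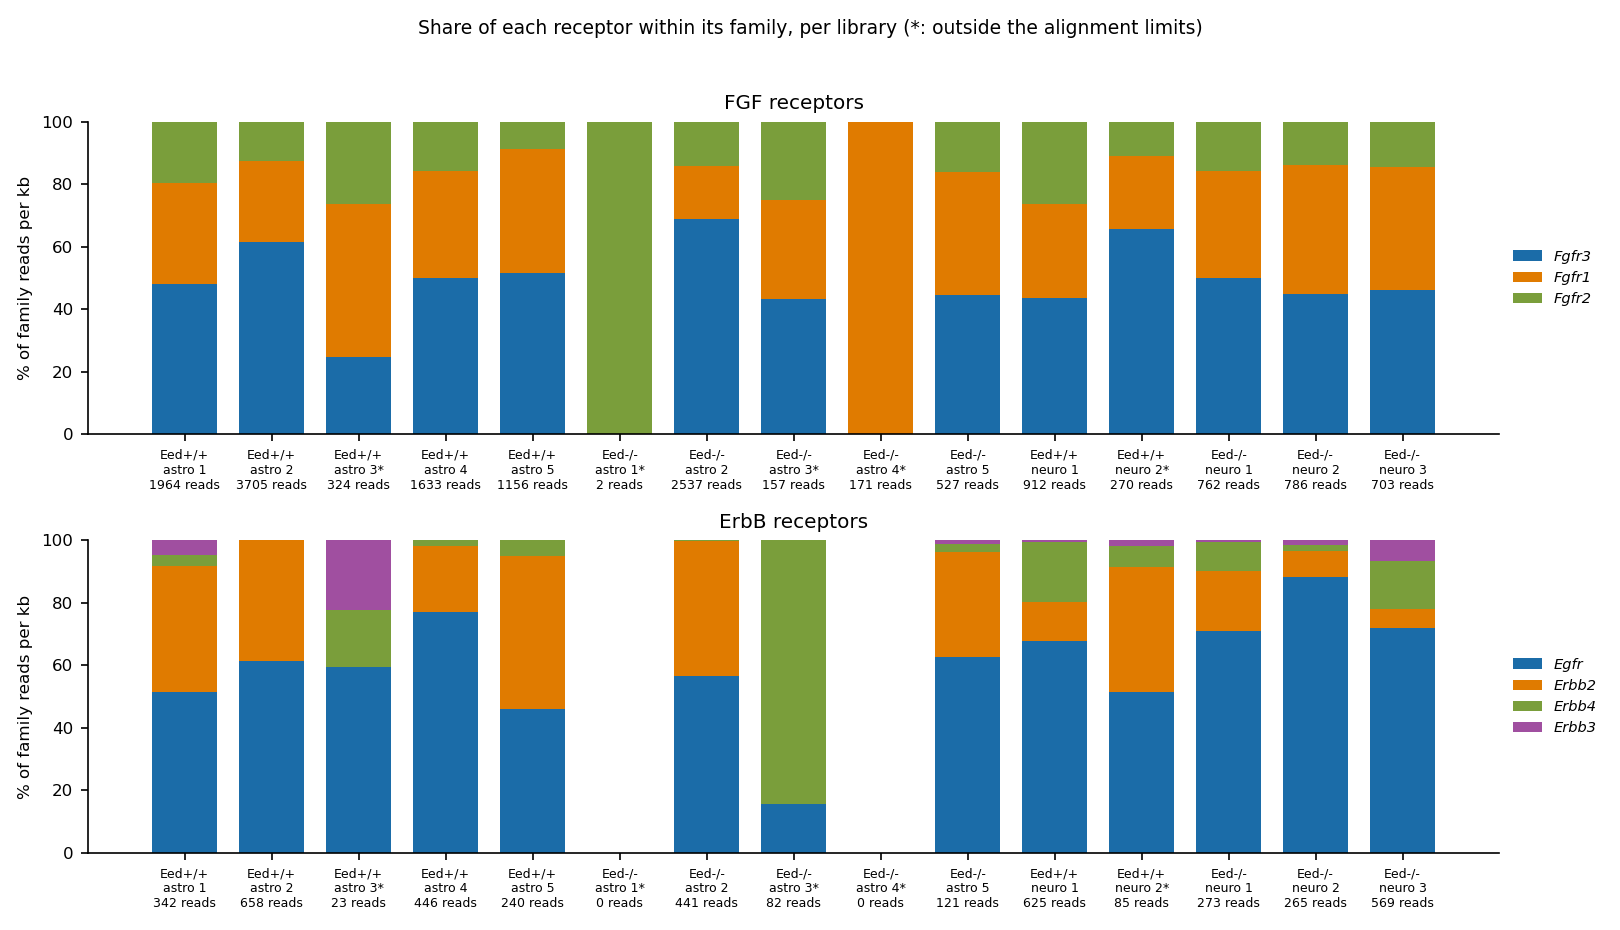
Share of each receptor in the reads per kb of its family (y axis, %), with 1 bar per library, the reads behind each bar under it and an asterisk on libraries outside the limits. In the ErbB panel Erbb2 (orange) is taller in the astrocyte bars without an asterisk than in the neuron bars without one, and the bars of Eed-/- astrocyte replicates 1 and 4 are empty because they had 0 ErbB reads.

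Igf1r, the receptor of the insulin-like growth factors (chr7:67952827-68233668, plus strand, 21.72 Mb from Eed), was at 69.1, 44.4, 89.1, 102 and 39.5 CPM in Eed+/+ astrocytes and at 66.0, 23.3, 0, 0 and 144 CPM in Eed-/- astrocytes. It was at 125 and 290 CPM in Eed+/+ neurons and at 93.1, 68.8 and 235 CPM in Eed-/- neurons. The neuron means were above the astrocyte means in both genotypes, and the ranges overlapped, with a log2 fold change of astrocytes against neurons of -1.54 (-3.50 to 0.41) over all libraries and -0.85 (-2.02 to 0.31) within the limits. The genotype difference was -0.51 (-3.39 to 2.36) in astrocytes and -0.79 (-2.33 to 0.75) in neurons, and within the limits 0.39 (-1.24 to 2.02) and 0.04 (-1.38 to 1.46).

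Ntrk2, which encodes TrkB (chr13:58806569-59133970, plus strand), had the most reads of the receptors. It was at 1075, 1523, 210, 1355 and 1049 CPM in Eed+/+ astrocytes, with replicate 3 far below the rest, and at 545, 1258, 897, 0 and 634 CPM in Eed-/- astrocytes. In neurons it was at 553 and 556 CPM in Eed+/+ and at 786, 668 and 592 CPM in Eed-/- libraries. Every Eed-/- neuron library lay above both Eed+/+ libraries, as did those of 15.6% of all genes tested, by a log2 fold change of 0.18 (-1.20 to 1.56, adjusted p = 0.93). With RLE scaling the Eed+/+ and the Eed-/- neuron means were both 583.7 CPM. In astrocytes the genotype difference was -0.57 (-2.51 to 1.37), and -0.39 (-1.25 to 0.47) within the limits. Between astrocytes and neurons it was 0.44 (-1.16 to 2.03) over all libraries and 0.80 (0.10 to 1.49, adjusted p = 0.58) within the limits, with means of 1149 ± 308 (n = 6) and 650 ± 103 CPM (n = 4).

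Ntrk3, which encodes TrkC, the receptor of neurotrophin-3 (chr7:78175959-78738012, minus strand, 11.22 Mb from Eed), was at 137, 100.0, 29.7, 107 and 88.6 CPM in Eed+/+ astrocytes and at 0, 189, 227, 3.09 and 157 CPM in Eed-/- astrocytes. Within the limits both Eed-/- astrocyte libraries (189 and 157 CPM) lay above all 4 Eed+/+ libraries, which 6.41% of all genes tested also did, while 8.11% lay below and no receptor did. The log2 fold change was 0.69 (-0.10 to 1.47, adjusted p = 0.9998) within the limits and 0.38 (-2.28 to 3.05) over all libraries, or -0.06 without Eed-/- replicate 3. In neurons the levels were 138 and 343 CPM in Eed+/+ and 82.9, 62.1 and 164 CPM in Eed-/- libraries, with a log2 fold change of -1.37 (-2.85 to 0.11, adjusted p = 0.70), and -0.46 (-1.78 to 0.87) within the limits, without Eed+/+ replicate 2. Ntrk2 held 92.7% of Trk reads per kb in astrocytes and 89.8% in neurons within the limits.

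**Figure D4:**
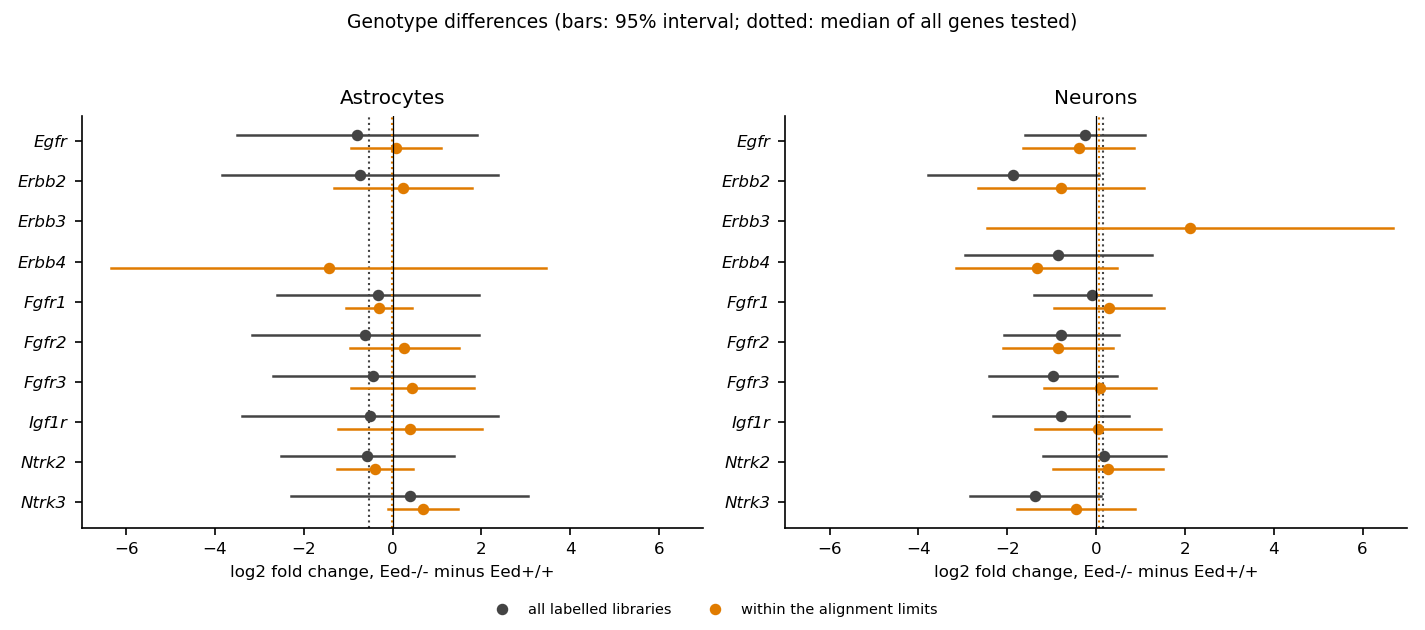
Log2 fold change of Eed-/- against Eed+/+ (x axis) for each receptor in astrocytes and neurons, with 95% intervals as bars, over all labelled libraries (gray) and within the limits (orange), and dotted lines at the median of all genes. Every interval crosses 0, and 5 of the 8 astrocyte values over all libraries lie on the other side of 0 from those within the limits.

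The library numbers carried by the deposited data fall into 2 runs, which no label names as batches, and all neuron libraries lie in run 1. In astrocytes within run 1 and within run 2 the genotype difference was -0.55 and -1.38 for Fgfr3, -0.48 and -1.43 for Ntrk2, and -1.23 and 0.34 for Fgfr1, and the interval of every receptor crossed 0 in both runs.

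The neuron comparison had only 2 Eed+/+ libraries, and each decided some values. Without Eed+/+ replicate 1, which leaves the library outside the limits alone in its group, 2601 of 12635 genes (20.6%) were called, and 2 of the 10 receptors, Erbb2 (-2.51, adjusted p = 0.041) and Ntrk3 (-1.88, adjusted p = 0.040, edgeR), a share near that of all genes. Without Eed+/+ replicate 2, 1 gene was called and no receptor, with -0.79 for Erbb2 and -0.46 for Ntrk3. In both fits, the second of which is the fit within the limits, 1 Eed+/+ library stands for its group.

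Between astrocytes and neurons the median log2 fold change of the receptors was -0.19 against -0.34 for all genes over all libraries, with 5 receptors above 0 and 5 below, and 0.44 against -0.16 within the limits. There 4 receptors (Erbb4, Fgfr1, Fgfr3 and Ntrk2) had an interval that left out 0, though none passed after adjustment. In the same fit 7.69% of all genes had an unadjusted p under 0.05. Erbb2 and Fgfr1 were above the neuron libraries in every astrocyte library, an arrangement held in either direction by 3.54% of genes (1.43% higher and 2.11% lower). DESeq2 within the limits called 137 genes (0.948%) and 0 receptors. Astrocyte markers in those libraries ran from 14430 to 39920 CPM in astrocytes and from 9023 to 13830 CPM in neurons, so they were higher in astrocytes like the levels of Erbb2, Fgfr1, Fgfr3 and Ntrk2, and their part in the differences was not tested. Within Eed+/+ the comparison called 1 gene (0.00748%) and within Eed-/- 8 (0.0598%), with 0 receptors in each.

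**Figure D5:**
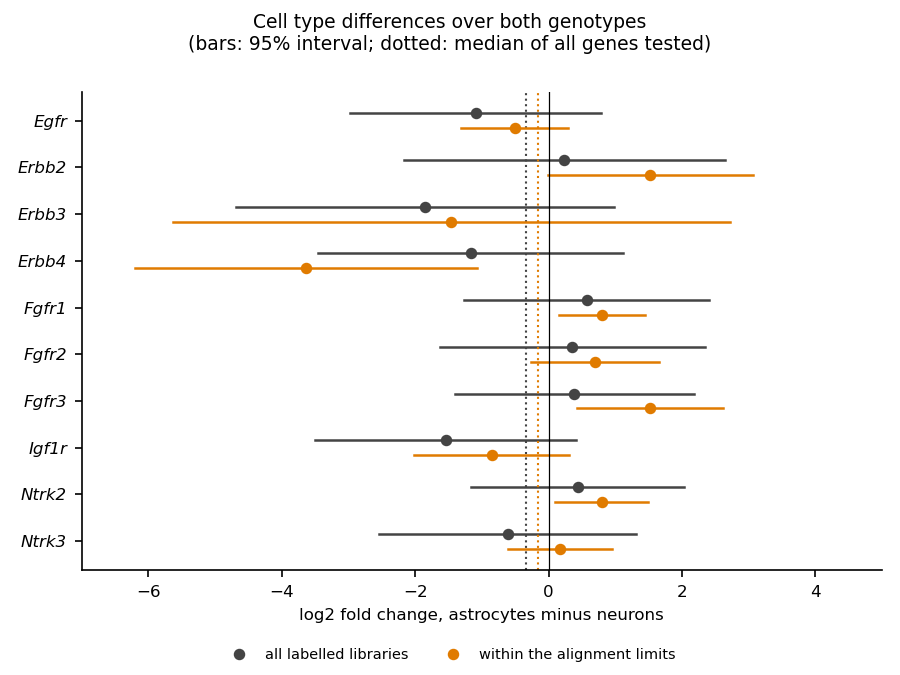
Log2 fold change of astrocytes against neurons over both genotypes (x axis) for each receptor, with 95% intervals, over all labelled libraries (gray) and within the limits (orange), and dotted lines at the median of all genes. Within the limits the bars of Fgfr1, Fgfr3 and Ntrk2 lie above 0 and that of Erbb4 below 0, whereas every gray bar crosses 0.

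The test of whether the genotype difference was unequal in astrocytes and neurons gave intervals wider than 6 log2 units for each receptor over all libraries. Erbb4 had a value of 3.30 (-1.44 to 8.03), which was -0.11 (-4.16 to 3.95) within the limits, where Eed-/- astrocyte replicate 3 was left out. Erbb3 had -4.0 (-10.07 to 2.06). Within the limits Ntrk3 (1.16, -0.35 to 2.67) and Fgfr2 (1.14, -0.65 to 2.94) had the largest positive values, and none passed (adjusted p = 0.9999).

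In the wider pathway, none of 7 further lists had a gene past the threshold in any of the 4 comparisons, over all libraries or within the limits. The lists hold 11 EGF-family and neuregulin ligands, 15 FGF ligands, 6 neurotrophins and insulin-like growth factors, 16 adaptors, 17 members of the MAPK and PI3K cascades, 17 feedback inhibitors and induced targets, and 12 other receptors and co-receptors. Of the ligands few were measured, and between astrocytes and neurons 6, 6 and 2 of the 3 ligand lists passed the filter, against 16, 17, 16 and 7 of the others. The 2 ligands of the EGF family with the highest means were Hbegf (71.3 CPM over 15 libraries) and Tgfa (68.1 CPM), and those of the FGF list were Fgf1 (45.9 CPM) and Fgf13 (42.6 CPM), an intracellular relative that is not secreted. Fgf13 stood above Fgf1 in Eed+/+ astrocytes (66.7 against 47.8 CPM) and Eed-/- neurons (48.6 against 11.8 CPM), and below it in the other groups. Bdnf, the ligand of TrkB, was at 8.34 CPM. Of the genes that the pathway is known to induce, Spry2, a feedback inhibitor, was at 328 CPM and Etv4, a transcription factor induced by FGF signaling, at 157 CPM. Between astrocytes and neurons within the limits Etv4 had a log2 fold change of 1.31 (0.13 to 2.49, adjusted p = 0.59) and Fgf1 one of 1.66 (0.19 to 3.13, adjusted p = 0.58), against 0.35 (-1.59 to 2.29) and 0.74 (-1.58 to 3.07) over all libraries, while in that comparison within the limits the intervals of the other genes named here crossed 0. Spry2 had a value of -0.32 (-1.11 to 0.48), with means of 421 ± 149 CPM in astrocytes (n = 6) and 492 ± 228 CPM in neurons (n = 4). The medians of the lists that hold Etv4 and Fgf1 lay below that of all genes (-0.16), at -0.46 for feedback inhibitors and induced targets and -0.38 for FGF ligands. The MAPK and PI3K list, led by Map2k2 (256 CPM) and Nras (200.1 CPM), had a median genotype difference of -0.90 in astrocytes over all libraries against -0.54 for all genes, and -0.12 against -0.02 within the limits. In neurons its median was 0.36 against 0.15 over all libraries and 0.06 against 0.07 within the limits. Between the genotypes in astrocytes Hbegf had a log2 fold change of -1.40 (-2.79 to -0.0016, adjusted p = 0.9998) within the limits, where 4.04% of genes had an unadjusted p under 0.05, and -0.93 (-3.73 to 1.87) over all libraries. In neurons, where that share was 7.27% over all libraries, the intervals of Fgf1 (-2.80, -4.76 to -0.83), Tgfa (-2.02, -3.71 to -0.32) and Map2k2 (1.65, 0.0055 to 3.29) left out 0. The intervals of these genes within the limits did not, with values of -0.53, -0.67 and 0.95. Genes of the lists that are not named here are not covered by these statements. By the mean over 15 libraries, Crk (114 CPM) and Ptpn11 (74.7 CPM) led the adaptors. Fgfrl1 (75.2 CPM), an FGF receptor without a kinase, and Sorcs2 (67.1 CPM) led the other receptors on that measure. The order of the adaptors differed by group, with Ptpn11 (109.9 CPM) above Crk (74.8) in Eed+/+ astrocytes and Gab1 (170.7) first in Eed+/+ neurons.

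The genes whose profile over the 15 libraries was most like that of the leading receptors were found from the root mean square difference of centered log2(CPM + 1) values among 13366 other genes. They were Lsamp (0.46), Sema6a (0.53) and Gabbr1 (0.54) for Fgfr3, where the median gene stood at 2.52. For Ntrk2 they were Bsg (0.41), Mlf2 (0.52) and Dclk1 (0.52), with a median of 2.43, and for Fgfr1 they were Cdk16 (0.37), Klhdc2 (0.49) and Lmf2 (0.50), with a median of 2.42. The libraries share depth and makeup, so these values are descriptions of likeness over these 15 libraries.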

How the data were processed

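RNA was measured by Smart-Seq v2 RNA-seq of sorted cells in 16 libraries, of which 15 had labels that gave 1 group. The labels of the other name both sorted populations, so it entered no comparison. The authors aligned reads with STAR to mm10 (GRCm38), as the submitters' processing notes name them, and deposited, for each library, raw counts of the reads that aligned uniquely and fell in a gene, not normalized. The study lists a STAR version without tying it to these libraries. Annotation release: not given in the sources used here. Counts without regard to strand were used, since the first strand held 46.7 to 52.7% of stranded reads. The 4 lines of totals in each file were left out: reads outside genes ran from 8.55 to 71.6% and ambiguous reads from 0.934 to 5.66%. Symbols were matched to 53274 of 53379 gene IDs, and genes were placed by a GRCm38 annotation.

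Genes were filtered with filterByExpr, scaled by TMM and tested with edgeR 4.0.16 (robust quasi-likelihood, Benjamini-Hochberg adjustment over all genes tested, threshold 0.05) in R 4.3.3. DESeq2 1.42.0, RLE scaling, no filter, a replicate block and leaving out each library were alternatives. The fits were run on simulated counts that varied less than the astrocyte libraries did, so how well they perform on those libraries was not tested. Libraries within the limits had at least 60% and 1000000 uniquely aligned reads. That fits within each run of library numbers and DESeq2 within the limits would be made was chosen after seeing the data. Floors stand for 3 counts and cover counting error only. Individual animals were the replicates per the study's methods.

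The receptors and lists were chosen with earlier results of these data known. All 10 receptors and Eed are named, with, of each pathway list, up to 4 genes of largest change among those past the threshold or otherwise the 2 tested genes of highest mean CPM, of each marker list up to 3 genes of highest mean CPM, and 3 genes of most like profile for each of the 3 receptors highest per kilobase. Of the neurotrophins and insulin-like growth factors only Bdnf is named, and Slc17a7 is named outside the rule for markers. Promoter sequences are from RefSeq (GRCm38.p6).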

Additional observations from a re-analysis of the deposited data

Results flagged for a closer look

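Of 20 receptor and group combinations of 4 to 10 libraries, 3 had a library far from the others by Dixon's 95% criterion. Chance gives this in about 1 of 20 for normally distributed values. Levels with several libraries at 0 are not so distributed, so the 3 cannot be set against that rate. All were in Eed-/- astrocytes: Fgfr3 at 1028 CPM in replicate 2, Erbb4 at 206.6 CPM in replicate 3 and Erbb3 at 1.01 CPM, a single read, in replicate 5. The Eed-/- library whose labels name both cell types had 988.9 CPM of Fgfr3 from 219 reads, against at most 621.4 CPM in the Eed+/+ libraries without TMM scaling. It had 2529 CPM of Ntrk2 from 560 reads, against at most 1284 CPM. It held 221456 gene counts, and 6 of the receptors had 0 reads there, which allows up to 13.5 CPM each. The labelled Eed-/- libraries were not part of these maxima. Of them, Eed-/- astrocyte replicate 2 had 1547 Fgfr3 reads and 1893 Ntrk2 reads in 1890462 gene counts.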

How the results depend on the processing

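Over settings other than leaving out a library, 289 values of the receptors were computed and 39 changed sign, none past the threshold. Over left-out libraries, 29 of 409 changed sign and 2 passed it. The cause of these changes was not tested. The wide intervals leave differences of several-fold undetected, and the part of depth in them was not tested.

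The number of genes called in astrocytes was 0, and 5 with no filter, 1 with DESeq2, 46 in a fit over all 15 libraries, 4 within run 1 and 14 with DESeq2 within the limits, and 0 to 1 without single libraries. In neurons it was 0, and 127 with no filter, 26 with DESeq2, 1 within the limits, 3 in the fit over 15 libraries and 5 with DESeq2 within the limits. Without single libraries it was 0 to 2601 genes and 0 to 2 receptors, the highest without Eed+/+ replicate 1, where 20.6% of all genes passed and Erbb2 and Ntrk3 with them, and 15 without Eed-/- replicate 1. Between cell types it was 2, and 0 with no filter, 5 with DESeq2, 0 within the limits, 0 within run 1, 137 with DESeq2 within the limits and 0 to 5 without single libraries. For the interaction it was 7, and 21 with RLE, 2 with no filter, 0 within the limits, 0 within run 1 and 1 to 12 without single libraries.

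Receptor values that changed sign in astrocytes within the limits were, with edgeR and then DESeq2, Egfr 0.07 and 0.11, Erbb2 0.23 and 0.26, Fgfr2 0.26 and 0.30, Fgfr3 0.45 and 0.48, and Igf1r 0.39 and 0.45. In astrocytes over all labelled libraries Fgfr1 was 0.13 with RLE and with DESeq2, and within run 2 it was 0.34. In neurons Fgfr1 was 0.29 within the limits by either tool, 0.03 in the fit over 15 libraries and 0.07 with no filter, Fgfr3 was 0.09 by either tool within the limits, and Igf1r 0.04 and 0.05. Between cell types Ntrk3 was 0.17 and 0.21 within the limits. In the interaction Egfr was 0.48 and 0.45, and Erbb4 -0.11 and -0.18, within the limits, Fgfr1 was 0.41 with RLE and with DESeq2, Fgfr2 -0.13 and Igf1r -0.04 with no filter, and Igf1r -0.29 within run 1.

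Without single libraries Ntrk3 in astrocytes ran from -0.06 to 0.69. Without a change of sign there, Egfr ran from -1.83 to -0.49 and Fgfr1 from -0.90 to -0.02. Likewise Fgfr2 ran from -1.43 to -0.30, Fgfr3 from -2.01 to -0.07 and Igf1r from -1.40 to -0.20. In neurons Erbb4 ran from -2.02 to 0.10, Fgfr1 from -0.33 to 0.29, Fgfr3 from -1.52 to 0.09 and Igf1r from -1.43 to 0.04. Between cell types Erbb2 ran from -0.57 to 0.73, Fgfr2 from -0.04 to 0.56 and Fgfr3 from -0.40 to 0.84, each lowest without Eed-/- astrocyte replicate 2. In the interaction Erbb2 ran from -0.74 to 1.64, Erbb4 from -1.57 to 4.48, Fgfr2 from -0.88 to 0.32, Fgfr3 from -1.35 to 0.88 and Igf1r from -0.92 to 0.83. With RLE, 3 of 40 group levels moved by more than 1 SD.

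The labels do not say whether samples of the same replicate number came from one animal. Only astrocyte and neuron libraries of 1 genotype could share an animal, and the correlation of their deviations from the group means ran from -0.05 to 0.13. Between libraries of unlike genotype, which came from different animals, it ran from -0.26 to 0.17. The pairing could not be taken from the data. With the replicate number as a block, 0 genes were called in astrocytes, 0 in neurons, 0 between cell types and 2 in the interaction, and 0 receptors. Between the genotypes this block joined different animals that share only a number, so it accounts for no pairing there. Between cell types and in the interaction it joined libraries of the same genotype and number. Under this block Ntrk3 in astrocytes was -0.65, Erbb2 and Fgfr1 between cell types were -0.92 and -0.12, and in the interaction Erbb2 was -2.74, Fgfr2 -0.74, Fgfr3 -1.42 and Igf1r -0.66.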
